A study of Mus musculus with 45 samples.

Results

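The Lin28, Igf2bp and Hmga genes and 3 imprinted growth genes were followed in the epithelium of the embryonic mouse small intestine. The set held 10 of the 23366 genes in the deposited count tables, found by symbol: Lin28a, Lin28b, Igf2bp1, Igf2bp2, Igf2bp3, Hmga1, Hmga2, Igf2, H19 and Dlk1. All 10 passed the filter on low counts, which left 15513 genes for testing. Read counts were scaled to the library's total over genes and are given as CPM, counts per megaread, which do not correct for gene length, so levels are compared between libraries and not between genes.

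These genes are called oncofetal because they are active in embryonic tissues, are silenced in most adult ones and return in many tumours. Lin28a and Lin28b proteins bind the precursors of the let-7 microRNAs and block their maturation, and let-7 in turn represses the mRNAs of Lin28, Hmga2 and Igf2bp genes. Igf2bp1 to Igf2bp3 proteins bind and stabilise other mRNAs, Hmga1 and Hmga2 are architectural proteins that bend DNA in chromatin, and mice that lack Igf2bp1 are small with a poorly developed gut. Igf2 (a secreted growth factor), H19 (a long noncoding RNA that hosts miR-675) and Dlk1 (a membrane ligand related to Notch ligands) are imprinted, that is, expressed from the allele of 1 parent.

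The study profiled sorted EpCAM-positive cells in 45 libraries, 3 in each of 15 groups, to compare embryonic progenitors marked early in gut formation with their neighbours. All embryos were wild type on a mixed C57BL/6 and CD1 background, and carried a tdTomato label that was switched on at E9.5 in cells active for Axin2 in one line and for Id2 in the other. At E15.5 the Axin2 line gave 4 posterior populations, namely Lgr5-positive labelled cells, labelled cells whose Lgr5 state the titles do not give, Lgr5-positive unlabelled cells and Lgr5-negative unlabelled cells, and the last 3 of these from the anterior intestine as well. At E13.5 each line gave all 4 populations from undivided small intestine. Each library was made from 500 cells, taken from 1 embryo at E15.5 and from 3 embryos pooled at E13.5, and the labels describe neither the Lgr5 reporter nor the Cre driver.

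Libraries held 16521311 to 19702205 reads on genes in the Axin2 line and 26888154 to 37729425 in the Id2 line, where 33.4% to 49% of reads fell outside genes, against 23.9% to 29.4% in the Axin2 line. All libraries carried the sort gene Epcam, at 1520 to 3370 CPM. In the Axin2 line Lgr5 ran from 30.7 to 89.1 CPM in Lgr5-positive and 4.39 to 16.6 CPM in Lgr5-negative groups at E15.5, and from 30.5 to 182 CPM in Lgr5-positive and 0.874 to 7.26 CPM in Lgr5-negative groups at E13.5. In the Id2 line it ran from 40.5 to 194 CPM in Lgr5-positive and 7.36 to 37.9 CPM in Lgr5-negative groups, so every Lgr5-positive library lay above every Lgr5-negative library of its line and stage. Labelled cells of unstated Lgr5 state had 14.7 to 85.4 CPM of Lgr5 at E15.5 and 2.91 to 28.8 CPM at E13.5 in the Axin2 line. In the Id2 line they had 6.81 to 29.6 CPM. Replicates differed by far more than sampling noise, so none was a copy of another. The posterior Lgr5-positive unlabelled replicates 1 and 3 stood apart with 1450 and 1290 CPM over 12 blood and immune markers, the E13.5 Axin2 Lgr5-positive labelled replicate 1 with 1630 CPM over 17 mesenchymal markers, the Id2 Lgr5-positive labelled and unlabelled replicates 1 with 1450 and 1080 CPM over the same markers, and the Id2 Lgr5-negative replicate 2 with 3720 CPM over 16 liver and pancreas markers. In all of these bulk values, fewer expressing cells and less RNA per cell cannot be told apart.

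The let-7 sequences are shown first because the seed, bases 2 to 8 of a mature microRNA, is what pairs with the mRNAs of this gene set. RefSeq holds 9 mouse microRNAs with 1 common seed, 8 named let-7 and miR-98, and the 4 below show how far they vary outside it. Capitals mark the seed.
let-7a: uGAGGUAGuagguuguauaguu
let-7b: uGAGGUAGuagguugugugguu
let-7g: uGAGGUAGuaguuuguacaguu
miR-98: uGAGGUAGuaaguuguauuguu
The libraries were primed on polyadenylated RNA and did not measure mature microRNAs. The let-7 gene rows of the count tables held 0 to 200 reads each over all 45 libraries, with at most 40 in any 1 library. The H19 transcript carries another pair of microRNAs, whose seeds differ from that of let-7 and from each other, and the Mir675 row held 0 reads in every library.
miR-675-5p: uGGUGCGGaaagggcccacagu
miR-675-3p: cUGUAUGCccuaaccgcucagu

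The complement of the let-7 seed, CTACCTC, was searched on the sense strand in the longest annotated 3′ untranslated region (UTR) of each gene (GENCODE M21, build GRCm38). It occurred in 1879 of 20955 genes, or 8.97%, and at most 8 times in any gene. Of the 9 members that code for protein, 7 held it. Hmga2, Igf2bp1 and Lin28b had 4 matches each, Lin28a had 2, Igf2bp2, Igf2bp3 and Hmga1 had 1 each, and Igf2 and Dlk1 had 0. Long UTRs hold more matches by length alone, so each count was set beside genes with UTRs of like length, from 0.8 times the member's length up to that length divided by 0.8. For Hmga2, whose UTR has 3014 bases, 16.1% of 2414 such genes held at least 1 match and 0.124% held at least 4. The corresponding shares were 34.4% and 0.332% for Igf2bp1 and 24.1% and 0.297% for Lin28b. A match is a description of letters and not a measured site.

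The matches of Hmga2, Igf2bp3, Igf2bp1 and Lin28b are printed because these genes carry the stage values that follow. The number after each name is the position of the first capital, counted from 1 at the start of the UTR, and capitals mark the 7 letters that pair with the seed.
Hmga2, 58: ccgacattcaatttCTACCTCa
Hmga2, 1295: cccactcctcaataCTACCTCt
Hmga2, 1733: tgatttgcaaggaaCTACCTCc
Hmga2, 2591: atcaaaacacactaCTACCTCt
Igf2bp3, 548: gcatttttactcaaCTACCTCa
Igf2bp1, 1715: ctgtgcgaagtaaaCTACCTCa
Igf2bp1, 4136: agcagtgctattaaCTACCTCa
Igf2bp1, 4730: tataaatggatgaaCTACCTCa
Igf2bp1, 5353: cttttggttttaatCTACCTCt
Lin28b, 36: cccgggcgggaagtCTACCTCa
Lin28b, 2410: atacttgttagtaaCTACCTCt
Lin28b, 2582: tttacagcacatggCTACCTCc
Lin28b, 3998: aatgatggcaccgaCTACCTCt
An adenine follows the match at 3 of the 4 places in Igf2bp1, at the 1 place in Igf2bp3, and at 1 of the 4 in both Hmga2 and Lin28b.

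**Figure D1:**
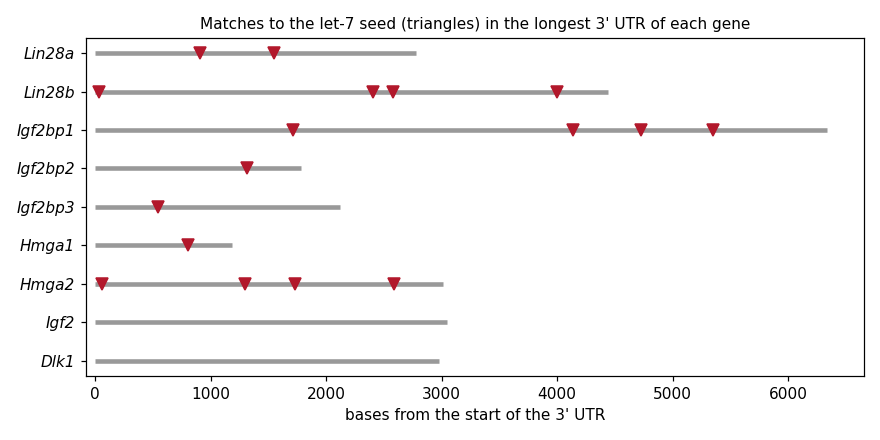
Position of each CTACCTC match (triangles) along the longest 3′ UTR of the 9 protein-coding members, in bases from the UTR start, with UTR length as a grey bar. Hmga2, Igf2bp1 and Lin28b hold 4 matches each, while Igf2 and Dlk1 hold 0.

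The members differed in how far their group means spanned, and a small span did not mean a level unchanged by stage. From the highest to the lowest group mean, the span was 1.9-fold for Igf2bp3, 2.52-fold for Igf2bp1, 3.83-fold for Igf2bp2, 4.25-fold for H19, 5.79-fold for Hmga1, 7.51-fold for Lin28b, 9.1-fold for Igf2, 9.16-fold for Hmga2 and 73.4-fold for Dlk1. With 15 groups in order of their means there are 14 neighbouring pairs, and most neighbours overlapped. The libraries of neighbouring groups did not overlap in 4 pairs for Hmga2 and Dlk1, 2 for Igf2bp2, 1 for Igf2bp3, Hmga1 and Igf2, and 0 for Lin28b, Igf2bp1 and H19. Because the groups were first ordered by their means, neighbours are the closest groups, so their overlap says little about the members. No such count was made over all genes.

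The first question was how the set changed between E15.5 and E13.5 in the Axin2 line. Hmga2, Igf2bp3 and Igf2bp1 were lower at E15.5 and Igf2 was higher, averaged over the 3 populations sorted at both stages and both gut parts, with 18 libraries at E15.5 and 9 at E13.5. That made 4 of 10 members called at an adjusted p below 0.05 (edgeR's quasi-likelihood test with Benjamini-Hochberg adjustment over all genes), 1 higher and 3 lower. Of all genes tested, 33.5% were called in this comparison, so the members' share was close to the background. The median log2 fold change was -0.26 over 9 members, leaving out Lin28a for its near-zero counts, against -0.04 over all genes. The 4 calls held with each of the 27 libraries left out in turn. With the replicate number as a random effect in limma, Igf2bp1 (adjusted p = 0.0572) and Igf2 (adjusted p = 0.0869) were not called, and 3116 genes were, in place of 5204.

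Hmga2, the architectural protein of embryonic progenitors, moved most. At E15.5 its 21 Axin2 libraries ran from 44.8 through a median of 65.6 to 95.6 CPM, against 102, 167 and 197 CPM over the 12 at E13.5. No E15.5 library reached the lowest E13.5 library. In the 3 matched populations Hmga2 averaged 66.5 ± 17.4 CPM at E15.5 (SD, n = 18) and 169 ± 35.8 CPM at E13.5 (SD, n = 9), a log2 fold change of -1.30 ± 0.14 (SE). The adjusted p was 9.87e-10 by edgeR's quasi-likelihood test. Hmga1, its close relative, ran from 3.6 to 7.91 CPM at E15.5, against 3.51 to 6.75 CPM at E13.5. The 2 ranges overlapped almost fully and the log2 fold change was -0.02, with a 95% interval of -0.5 to 0.46, its sign turning to 0.02 under another scaling. Hmga1 shares sequence with transcripts annotated elsewhere, so its level is uncertain.

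Among the RNA-binding Igf2bp genes, Igf2bp3 separated the stages completely and Igf2bp2 did not. Igf2bp3 ran from 269 through 324 to 377 CPM over the E15.5 libraries, against 411, 525 and 592 CPM over those at E13.5. Its log2 fold change was -0.62 ± 0.09 (adjusted p = 1.91e-06, edgeR), and in each of the 4 populations every E15.5 library lay below every E13.5 library. Igf2bp1 ran from 43.7 through 58.4 to 122 CPM at E15.5, against 45.7, 99.5 and 220 CPM at E13.5. These ranges overlapped at both ends, through the posterior Lgr5-positive unlabelled replicate 3 at 122 CPM and the E13.5 Lgr5-positive labelled replicate 3 at 45.7 CPM. Igf2bp1 fell by 0.60 ± 0.16 on the log2 scale (adjusted p = 0.00397, edgeR). Igf2bp2 ran from 319 through 391 to 524 CPM at E15.5, against 335, 478 and 570 CPM at E13.5, and did not pass the test (log2 fold change -0.12, 95% interval -0.35 to 0.1). The fold changes of these 3 genes were not tested against each other. Of the 50-base stretches of Igf2bp3 transcripts, 18.1% are shared with other annotated genes, mainly Malsu1, whose gene overlaps its end on the opposite strand, and the strand setting of the counting is not given in the sources used here.

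Lin28b had at least 1 read in every library, though under 5 reads in 3 of them, and Lin28a was near the limit of detection. Lin28b averaged 4.65 ± 2.4 CPM at E15.5 (SD, n = 18) and 9.35 ± 3.42 CPM at E13.5 (SD, n = 9). The E15.5 libraries ran from 1.36 CPM to 9.14 CPM, so the stages overlapped. The log2 fold change of -1 ± 0.56 did not pass edgeR's test (adjusted p = 0.175), but limma with library quality weights gave -1.15 with an adjusted p of 0.000565. Within 1 group Lin28b varied more than between stages, as the E13.5 Lgr5-positive labelled replicates had 0.112, 16 and 0.465 CPM. Lin28a had 269 reads over all 45 libraries, with 0 in 25 libraries and 1 to 4 in 15. The other 5 libraries held 89.2% of its reads, and were the Id2 Lgr5-negative replicate 2 with 73 reads, the posterior Lgr5-positive unlabelled replicates 1 and 3 with 61 and 57, and at E13.5 the Axin2 Lgr5-positive labelled replicate 2 with 29 and the Lgr5-positive unlabelled replicate 2 with 20. Of these, 3 are among the libraries that carried markers of other cell types, and the part of those cells in the Lin28a reads was not tested. A library with 0 reads allows a level of up to 0.0795 to 0.182 CPM (3 counts of the total), counting error alone considered. Lin28a passed the filter on low counts through the 5 libraries above. No fold change of it is interpreted, and where later comparisons count or name it, nothing is read from that.

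Of the 3 imprinted members, Igf2 alone was called by edgeR in the averaged stage comparison. No test compared the fold changes of these 3 genes with each other. Igf2 ran from 250 through 600 to 849 CPM over the E15.5 libraries, against 192, 387 and 551 CPM over the E13.5 ones. The stages overlapped, with most E15.5 libraries above the E13.5 median, and the log2 fold change was 0.58 ± 0.16 (adjusted p = 0.00355, edgeR). H19 ran from 856 through 1520 to 2530 CPM at E15.5, against 892, 1180 and 2060 CPM at E13.5, with a log2 fold change of 0.19 (95% interval -0.23 to 0.62) that did not pass. Dlk1 ran from 3.44 through 25.8 to 82.6 CPM at E15.5, against 1.61, 40.7 and 127 CPM at E13.5, and its log2 fold change of -0.26 had a 95% interval of -1.21 to 0.7. Of the 50-base stretches in Igf2 transcripts, 62.1% also lie in the overlapping annotated gene model Gm49394, and Igf2as on the opposite strand had 1.7 to 18.2 CPM, so Igf2 levels carry that uncertainty.

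Cell-type markers moved with stage as well. The summed level of 17 mesenchymal markers was 22.7 to 251 CPM at E15.5 and 133 to 580 CPM at E13.5, and that of 12 epithelial markers 9270 to 12400 CPM at E15.5 and 7280 to 9590 CPM at E13.5. Of the 14 mesenchymal markers tested, 3 fell and 0 rose, led by Vim, an intermediate filament gene, while 9 of 12 epithelial markers rose and 0 fell. The sums for 16 liver and pancreas markers were 346 to 2040 CPM at E15.5 and 373 to 838 CPM at E13.5, and for 9 neural markers 8.82 to 59.4 CPM at E15.5 and 9.86 to 50.1 CPM at E13.5. Blood and immune markers summed to 5.34 to 1450 CPM at E15.5 and 2.88 to 15 CPM at E13.5. Their part in the members' stage values was not tested, and dropping the blood-marked libraries changed none of the 4 calls. Embryos also differed by stage, with 1 per library at E15.5 and 3 pooled at E13.5, and this cannot be told apart from stage.

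Taken population by population, the comparisons share no E13.5 libraries with each other, but they are not independent. They come from 1 fit. Deviations from group means were also correlated between same-numbered Lgr5-positive and Lgr5-negative unlabelled libraries at E13.5 (0.545, 0.736 and 0.247). In Lgr5-positive labelled cells, where E15.5 has posterior libraries only, 3 members were called beside 14.6% of genes. With only the 6 compared libraries in the fit 0 members and 72 genes were called, in place of 2260. In the fit over all groups Igf2bp1 (-1.25 ± 0.34, adjusted p = 0.0117) and Igf2bp3 (-0.66 ± 0.19, adjusted p = 0.0207) fell and Igf2 (1.05 ± 0.31, adjusted p = 0.0199) rose. Hmga2 was at 92.1, 65.1 and 84.3 CPM at E15.5, against 115, 154 and 102 CPM at E13.5, groups that did not overlap although the test was not passed (adjusted p = 0.183). The calls in this population depended on single libraries. Without the E13.5 replicate 1, which carries mesenchymal markers, Igf2bp1 was at -0.67 (adjusted p = 0.236), Igf2bp3 at -0.56 (0.107) and Igf2 at 1.05 (0.0711). Without the E15.5 replicate 1 the adjusted p was 0.0719 for Igf2bp1, 0.103 for Igf2bp3 and 0.0517 for Igf2. Igf2bp3 also missed the threshold without the E13.5 replicate 2 (0.072) or the E15.5 replicate 3 (0.0994), and Igf2 without the E13.5 replicate 3 (0.0564) or the E15.5 replicate 3 (0.0725).

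In labelled cells of unstated Lgr5 state 3 members fell beside 12.4% of genes called. Hmga2 had 54.6, 44.8 and 56.3 CPM in anterior and 72.3, 72 and 83.9 CPM in posterior libraries at E15.5, against 189, 170 and 191 CPM at E13.5. Its 6 E15.5 libraries lay well below the 3 at E13.5 (-1.49 ± 0.23, adjusted p = 1.76e-05), and Igf2bp3 showed the same order (-0.69 ± 0.16, adjusted p = 0.00307). Igf2bp1 fell too (-0.89 ± 0.28, adjusted p = 0.0311), but the E13.5 replicate 1 at 177 CPM decided its size, and without it the log2 fold change was -0.52 (adjusted p = 0.393). That Igf2bp1 call was also lost without the E13.5 replicate 3 (0.0651), the anterior replicates 1 or 2 (0.0856 and 0.0682) or the posterior replicates 1 or 2 (0.0827 and 0.0882).

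In Lgr5-positive unlabelled cells 4 members were called beside 9.5% of genes, 2 in each direction. Hmga2 had 94.3, 50.5 and 65.6 CPM in anterior and 73.3, 95.6 and 54.8 CPM in posterior libraries, against 196, 197 and 192 CPM at E13.5 (-1.41 ± 0.23, adjusted p = 6.41e-05). Igf2bp3 fell by 0.58 ± 0.16 (adjusted p = 0.0164), Igf2 rose by 0.95 ± 0.28 (adjusted p = 0.0212) and Dlk1 by 3.01 ± 0.96 (adjusted p = 0.0404), all on the log2 scale and by edgeR. Hmga2 kept its call with every library left out, and the others did not. Without the blood-marked posterior replicates 1 and 3 together, Dlk1 was at 1.91 (adjusted p = 0.367), Igf2bp3 at -0.56 (0.117) and Igf2 at 0.97 (0.0637). Leaving out any 1 of the 9 libraries other than the posterior replicate 2 took the Dlk1 adjusted p to between 0.0517 and 0.19, leaving out any E13.5 replicate took that of Igf2bp3 to between 0.0668 and 0.121, and leaving out the E13.5 replicates 2 or 3 or the anterior replicate 2 took that of Igf2 to 0.0735, 0.134 and 0.0527.

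In Lgr5-negative unlabelled cells 2 members fell beside 13.3% of genes called. Hmga2 had 47.6, 46.1 and 49.4 CPM in anterior and 62, 81.3 and 92.4 CPM in posterior libraries at E15.5, against 164, 105 and 113 CPM at E13.5. Its log2 fold change was -0.99 ± 0.24 (adjusted p = 0.00305), or -0.74 (adjusted p = 0.0646) without the E13.5 replicate 1. Igf2bp3 fell by 0.60 ± 0.16 on the log2 scale (adjusted p = 0.011), and the call was lost without the E13.5 replicate 2 (-0.48, adjusted p = 0.117) or replicate 3 (-0.58, adjusted p = 0.0522). Dlk1 had 73.7, 82.6 and 52.3 CPM in anterior and 13.8, 9.66 and 7.75 CPM in posterior libraries, against 127, 120 and 98.8 CPM at E13.5, with every E15.5 library below every E13.5 one but an adjusted p of 0.0784.

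The change with stage was also compared between populations. The stage difference of Lgr5-positive unlabelled cells minus that of Lgr5-negative unlabelled cells called 0 members beside 0.168% of genes. There Dlk1 had a difference of 5.04 ± 1.24 on the log2 scale (adjusted p = 0.0900, edgeR). Dlk1 was the 1 member with an unadjusted p under 0.05 and the 1 called by DESeq2, and limma called 2, Dlk1 (4.66, adjusted p = 1.57e-05) and Hmga2 (-0.62). Over all genes 737 had an unadjusted p under 0.05, DESeq2 called 144 and limma 953, against 26 by edgeR. The stage difference of labelled cells of unstated Lgr5 state minus that of Lgr5-negative unlabelled cells called 0 members beside 0% of genes by edgeR, with 0 members under an unadjusted p of 0.05 and 0 by DESeq2 and limma. By edgeR the stage change of the Hmga and Igf2bp genes was therefore not shown to differ between the populations.

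**Figure D2:**
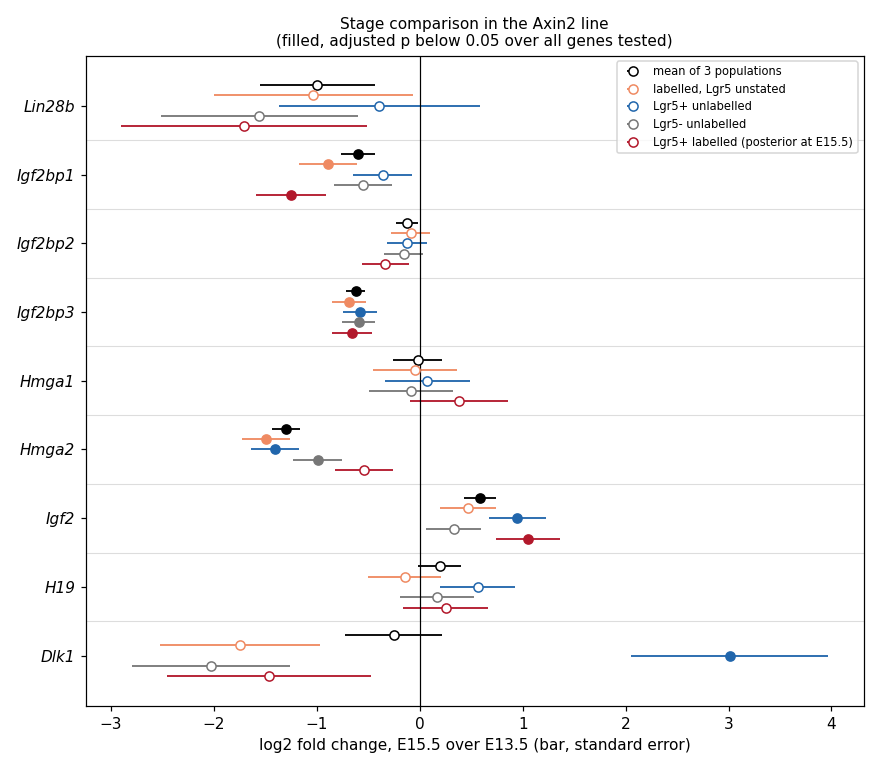
Log2 fold change of E15.5 over E13.5 (points, with SE bars) for 9 members in the mean of 3 populations and in each population of the Axin2 line, with a line at 0 and filled points where the adjusted p is below 0.05. Hmga2 and Igf2bp3 lie below 0 in every population, Igf2 lies above 0 in the mean at 0.58, and Dlk1 takes opposite signs in Lgr5-positive and Lgr5-negative unlabelled cells.

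The promoters of Hmga2 and Igf2bp3 are printed because these are the members whose stages were apart in each of the 4 populations. They run from 250 bases before to 50 after the RefSeq start (build GRCm38.p6), are on the minus strand and read 5′ to 3′. Searches were run on both strands. The TATA box TATAAA occurs in 13.6% of 32851 promoters of this length. The CCAAT box occurs in 37.4% of them. The GC box GGGCGG occurs in 35.7%. Capitals mark the motif found.
Hmga2, chr10:120476420-120476719: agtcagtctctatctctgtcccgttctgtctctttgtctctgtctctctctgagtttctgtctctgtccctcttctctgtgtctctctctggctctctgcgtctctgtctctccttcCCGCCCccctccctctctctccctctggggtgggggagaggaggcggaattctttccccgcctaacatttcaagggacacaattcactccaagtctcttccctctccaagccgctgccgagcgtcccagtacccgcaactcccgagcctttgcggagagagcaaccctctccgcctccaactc
Igf2bp3, chr6:49214905-49215204: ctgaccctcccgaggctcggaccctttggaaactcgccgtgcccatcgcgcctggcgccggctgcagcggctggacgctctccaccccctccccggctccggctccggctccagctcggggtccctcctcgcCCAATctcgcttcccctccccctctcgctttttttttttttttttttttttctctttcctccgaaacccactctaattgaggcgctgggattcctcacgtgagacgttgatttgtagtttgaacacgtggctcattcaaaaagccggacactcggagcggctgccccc
Hmga2 has 1 GC box, read here on its opposite strand, in a stretch with 57.7% G or C and 12 CpG pairs. Igf2bp3 has 1 CCAAT, 60.3% G or C and 25 CpG pairs. The medians over all promoters were 52.7% and 7 CpG pairs. The pair share none of these motifs, and what regulates them was not measured.

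Other genes of the same pathways were followed in lists, by stage as above and against a median of -0.04 over all genes. Of all genes 33.5% were called, and each count below is read beside that share. Of 16 partners of Lin28 in the let-7 pathway 0 rose and 4 fell, a share below that of all genes, with a list median of -0.18. They were Zcchc11, the terminal uridylyltransferase that Lin28 recruits to precursor let-7 (62.5 CPM at E15.5 and 137 CPM at E13.5, log2 fold change -1.11 ± 0.10, adjusted p = 2.94e-11), Drosha, the nuclease that cuts primary microRNA transcripts (-0.55), Prkra, a Dicer partner (-0.63), and Hnrnpa1, an RNA-binding protein (-0.55). Of 25 let-7 target genes outside the set 5 rose and 8 fell, with a median of -0.04, equal to that of all genes. Mycn, a growth-promoting transcription factor, averaged 79.1 ± 29.5 CPM at E15.5 and 240 ± 64.1 CPM at E13.5, with a log2 fold change of -1.57. Sall4, a pluripotency factor, had 1.38 CPM at E15.5 and 13.3 CPM at E13.5 (-3.51), and Prtg, a cell adhesion receptor of the early embryo, had 2.22 CPM at E15.5 and 9.25 CPM at E13.5 (-3.85). In the other direction, Ccnd2, a G1 cyclin, averaged 1030 ± 146 CPM at E15.5 and 654 ± 124 CPM at E13.5 (0.70), and Myc rose by 0.96. Genes known as let-7 targets thus moved both ways.

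Of 14 mRNAs and partners bound by Igf2bp proteins 2 rose and 1 fell, with a median of 0.05. Myc, whose mRNA Igf2bp1 is known to stabilise, averaged 362 ± 84.2 CPM at E15.5 and 192 ± 41.9 CPM at E13.5, Cd44, a cell adhesion receptor, rose by 1.98, and Ctnnb1, which encodes beta-catenin, fell by 0.39. Of 14 Igf ligand, receptor and binding protein genes tested 0 rose and 6 fell, with a median of -0.84. Igfbp2, a secreted binder of Igf2, had 25.1 ± 21.3 CPM at E15.5 and 203 ± 84.1 CPM at E13.5 (-3.13), Igfbp4 had 268 ± 73.5 CPM at E15.5 and 568 ± 162 CPM at E13.5 (-1.03), Igfbp5 fell by 2.39 and Igfbp7 fell by 3.06. The binding protein genes that were called fell while Igf2 rose. Of 23 imprinted growth genes outside the set 1 rose and 10 fell, with a median of -0.48. Ndn, which encodes necdin, averaged 14.1 ± 12 CPM at E15.5 and 65.3 ± 13.2 CPM at E13.5 (-2.45), Nnat, a membrane protein gene, fell by 3.57, and Slc38a4, an amino acid transporter gene, had 18.2 CPM at E15.5 and 59.2 CPM at E13.5. Phlda2, a regulator of placental growth, rose by 3.49. Mesenchymal markers fell with stage too, as given above, and of 9 neural markers 1 rose and 5 fell although their sums overlapped. The part of such cells in these lists was not tested.

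The second question was gut part, set out for posterior over anterior intestine at E15.5, where Dlk1 was the member that changed. Averaged over 3 populations, 1 of 10 members was called beside 3.64% of genes. Dlk1 in labelled cells of unstated Lgr5 state had 5.83, 7.03 and 4.3 CPM in posterior libraries, against 53.6, 61.1 and 45 CPM in anterior ones. In Lgr5-negative unlabelled cells it had 13.8, 9.66 and 7.75 CPM in posterior libraries, against 73.7, 82.6 and 52.3 CPM in anterior ones. In Lgr5-positive unlabelled cells it had 25.8, 4.67 and 34.7 CPM in posterior libraries, against 55.9, 76.8 and 60.8 CPM in anterior ones. All 9 posterior libraries lay below all 9 anterior ones, and the 2 highest posterior values were those of the blood-marked replicates 1 and 3. The mean was 12.6 ± 10.6 CPM in posterior and 62.4 ± 12.6 CPM in anterior libraries (SD, n = 9 each), with a log2 fold change of -2.51 ± 0.57 (adjusted p = 0.00637, edgeR). Without the blood-marked libraries it was -3.25 (adjusted p = 0.0273), and with any 1 library left out it lay between -2.68 and -2.35.

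Liver and pancreas markers moved with gut part beside Dlk1, which is itself known in fetal liver and pancreas. Their sum was 346 to 618 CPM in posterior and 559 to 2040 CPM in anterior libraries, and 7 of 14 tested markers fell while 1 rose. Among the markers that fell were Cpa1 (0.0831 CPM in posterior and 80 CPM in anterior libraries) and Pdx1 (0.227 CPM in posterior and 8.06 CPM in anterior libraries). Others were Clps (39.1 CPM in posterior and 187 CPM in anterior libraries) and Apoa1 (143 CPM in posterior and 489 CPM in anterior libraries), an apolipoprotein gene of liver and intestine. A place in this list does not exclude expression in intestinal cells, as for Apoa1. The liver gene Fgb rose, Alb was at 0 in 31 of the 45 libraries and Ahsg in 40, and Afp, Apoa1 and Ttr were above 0 in all of them. Mesenchymal markers summed to 54.7 to 251 CPM in posterior and 22.7 to 94.5 CPM in anterior libraries. Whether liver, pancreas or mesenchymal cells were present, and their part in the Dlk1 difference, was not tested.

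No other member passed edgeR's test by gut part. Hmga2 averaged 76.4 CPM in posterior and 56.6 CPM in anterior libraries (n = 9 each, overlapping), and its log2 fold change of 0.46 ± 0.16 had an adjusted p of 0.134. Hmga2 passed in limma with quality weights (0.51, adjusted p = 0.00219) and with the compared libraries alone (0.47, adjusted p = 0.0199), and limma also called Hmga1 (-0.48, adjusted p = 0.0248) and Lin28a. Over all genes limma called 2616 and the compared libraries alone 1761, against 565 in the main fit. Igf2bp3 was level between the parts, with a log2 fold change of 0.03 and a 95% interval of -0.19 to 0.26, and Igf2bp2 was at -0.01 with -0.27 to 0.26. H19 (-0.37) and Igf2 (-0.29) did not pass. Within single populations edgeR called 0 members in each. In labelled cells of unstated Lgr5 state 0.271% of genes were called, with 2 members (Hmga2 and Dlk1) under an unadjusted p of 0.05, 1 called by DESeq2 and 1 by limma. In Lgr5-positive unlabelled cells 0.49% of genes were called, with 1 member (Lin28a) under an unadjusted p of 0.05, 0 called by DESeq2 and 1 by limma. The Lin28a reads lay mainly in the blood-marked posterior replicates 1 and 3, at 61 and 57, so nothing is read from this. In Lgr5-negative unlabelled cells 0.329% of genes were called, with 3 members (Hmga2, Igf2 and Dlk1) under an unadjusted p of 0.05, 0 called by DESeq2 and 2 by limma. In the order of these 3 populations, 937, 1013 and 1149 genes were under an unadjusted p of 0.05. DESeq2 called 168, 240 and 209 genes, and limma 803, 360 and 1765. In the lists, 2 of 23 imprinted genes rose and 0 fell, namely Ndn (1.22) and Slc38a4 (1.35), 1 of 14 Igf pathway genes rose, Igfbp5 (1.03), and 1 fell, Igfbp1, which was near 0 in every group. Of 25 let-7 targets 1 rose, Prtg (3.83), and 0 fell, and the list medians of 0.05, -0.22 and 0.02 stood beside -0.02 over all genes.

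The third question was the Lgr5 gate, the mark of intestinal stem cells and their precursors, set out as Lgr5-positive over Lgr5-negative unlabelled cells. At E13.5 in the Axin2 line Dlk1 had 7.77, 1.61 and 4.68 CPM in Lgr5-positive cells, against 127, 120 and 98.8 CPM in Lgr5-negative cells. The lowest Lgr5-negative library was 12.7 times the highest Lgr5-positive one, and the log2 fold change was -4.64 ± 1.09 (adjusted p = 0.0245, edgeR). It was the 1 member of 10 called, beside 0.87% of genes, and DESeq2 called 1 member as well, beside 251 genes. With the replicate number as a block Dlk1 was at -4.91 (adjusted p = 0.00406) and 1.42% of genes were called. The call did not survive a smaller sample, since leaving out any 1 of the 6 libraries gave -5.23 to -4.25 with adjusted p from 0.051 to 0.214. In this contrast liver and pancreas markers summed to 373 to 506 CPM in Lgr5-positive and 799 to 838 CPM in Lgr5-negative cells, with Ahsg and Prss2 at 0, and mesenchymal markers to 467 to 580 CPM in Lgr5-positive and 133 to 169 CPM in Lgr5-negative cells, with Twist1 and Dpt at 0. Of these markers Apoa1 (-2.84, adjusted p = 0.0279) and Ttr (-1.29, adjusted p = 0.0387) fell with Dlk1 and Vim rose (1.98, adjusted p = 0.00388). Their part in the Dlk1 difference was not tested.

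Elsewhere Dlk1 did not pass edgeR's test under the gate in the main fit. The differences of the gate between lines and between gut parts, given below, did not call it either. At E15.5 in anterior intestine it had 55.9, 76.8 and 60.8 CPM in Lgr5-positive cells, against 73.7, 82.6 and 52.3 CPM in Lgr5-negative cells, which overlapped (log2 fold change -0.14, 95% interval -2.03 to 1.74). In posterior intestine it had 25.8, 4.67 and 34.7 CPM in Lgr5-positive cells, against 13.8, 9.66 and 7.75 CPM in Lgr5-negative cells (0.94, interval -1 to 2.88). In the Id2 line at E13.5 it had 142, 31.6 and 4.97 CPM in Lgr5-positive cells, against 189, 464 and 194 CPM in Lgr5-negative cells, with no overlap and a log2 fold change of -2.27 ± 0.96 that did not pass (adjusted p = 0.351). Without the 4 Id2 libraries of replicate 1, which stood apart as described with that line, Dlk1 was at -4.17 (adjusted p = 0.0257). In this Id2 contrast liver and pancreas markers summed to 494 to 856 CPM in Lgr5-positive and 1610 to 3720 CPM in Lgr5-negative cells, and mesenchymal markers to 459 to 1080 CPM in Lgr5-positive and 258 to 333 CPM in Lgr5-negative cells, and their part in the Dlk1 values was not tested. The difference of the gate between the Id2 and Axin2 lines called 0 members beside 0% of genes by edgeR, with 1 member (Lin28a) under an unadjusted p of 0.05 and 0 by DESeq2 and limma. The difference of the gate between posterior and anterior intestine called 0 members beside 0.00645% of genes, again with 1 member, Lin28a, under an unadjusted p of 0.05 and 0 by DESeq2 and limma. An unadjusted p under 0.05 was reached by 586 genes for the difference between lines and 707 for that between gut parts.

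**Figure D3:**
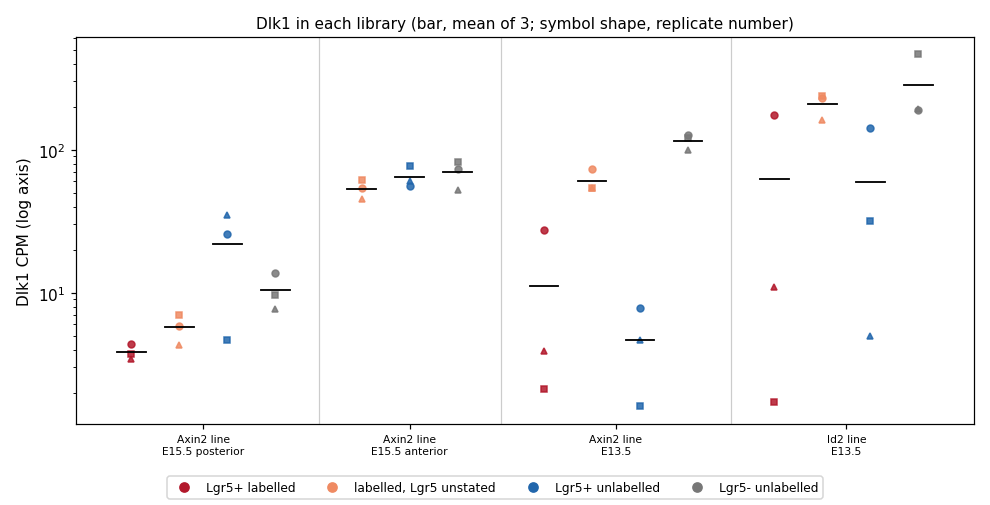
Dlk1 in CPM (log axis) in each of the 45 libraries by group, with colour for population, symbol shape for replicate and a bar at the mean of 3. Posterior E15.5 libraries lie at 3.44 to 34.7 CPM and anterior ones at 45 to 82.6 CPM, and at E13.5 in the Axin2 line the Lgr5-positive cells lie below the Lgr5-negative cells.

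For the other members the gate gave differences that did not pass edgeR's test, given here as values. In the Axin2 line at E13.5 there were 4 members under an unadjusted p of 0.05 (Lin28a, Hmga2, H19 and Dlk1), and limma with quality weights called the same 4, with H19 at -0.86 (adjusted p = 0.000568) and Hmga2 at 0.74 (adjusted p = 6.66e-05). H19 at E13.5 in the Axin2 line had 1000, 983 and 900 CPM in Lgr5-positive cells, against 1930, 1440 and 1710 CPM in Lgr5-negative cells (log2 fold change -0.85 ± 0.42, adjusted p = 0.869). H19 in posterior intestine at E15.5 had 1040, 1290 and 956 CPM in Lgr5-positive cells, against 1780, 1560 and 1520 CPM in Lgr5-negative cells (-0.68 ± 0.41, adjusted p = 0.438). Neither pair of groups overlapped, while the anterior groups did. Hmga2 at E13.5 had 196, 197 and 192 CPM in Lgr5-positive cells, against 164, 105 and 113 CPM in Lgr5-negative cells (0.58 ± 0.28, adjusted p = 0.869). In the Id2 line Hmga2 had 231, 529 and 388 CPM in Lgr5-positive cells, against 208, 266 and 259 CPM in Lgr5-negative cells (0.69 ± 0.28, adjusted p = 0.323). The Axin2 groups for Hmga2 at E13.5 were apart and the Id2 groups overlapped in replicate 1. In the anterior gate comparison edgeR called 0 members beside 0% of genes, with 0 members under an unadjusted p of 0.05 and 0 by DESeq2 and limma. The posterior gate comparison called 0 members beside 0.393% of genes, with 1 (Lin28a) under an unadjusted p of 0.05, 0 by DESeq2 and 1 by limma. In the Id2 line it called 0 members beside 0.477% of genes, with 3 (Lin28a, Hmga2 and Dlk1) under an unadjusted p of 0.05, 0 by DESeq2 and 1 by limma. That unadjusted p took in 2298 genes in posterior intestine and 1742 in the Id2 line, and limma called 1551 and 17 genes.

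Lgr5-positive labelled cells were also set over labelled cells of unstated Lgr5 state, called here the gate within labelled cells. The reference is not an Lgr5-negative group and may hold Lgr5-positive cells. At E13.5 in the Axin2 line 6 members had values without overlap, 5 lower and 1 higher, and none passed. The share of all genes without overlap was not counted, so the 6 have no background. Igf2 had 245, 311 and 192 CPM in Lgr5-positive labelled cells, against 551, 409 and 473 CPM in labelled cells (-0.98 ± 0.31, adjusted p = 0.0812). H19 had 935, 892 and 905 CPM in Lgr5-positive labelled cells, against 2060, 1360 and 1990 CPM in labelled cells (-1.02 ± 0.42, adjusted p = 0.169). Dlk1 had 27.6, 2.13 and 3.89 CPM in Lgr5-positive labelled cells, against 73.8, 53.9 and 54.1 CPM in labelled cells (-2.47 ± 0.98, adjusted p = 0.159). In each of these 3 imprinted genes every Lgr5-positive library was below every other one, as also in Hmga2 (102 to 154 CPM in Lgr5-positive labelled cells, against 170 to 191 CPM in labelled cells) and Hmga1 (3.51 to 4.47 CPM, against 5.18 to 6.75 CPM in those groups), while Igf2bp2 was higher in all. Liver and pancreas markers summed to 308 to 643 CPM in Lgr5-positive labelled cells and 654 to 783 CPM in labelled cells, and their part was not tested. The highest Dlk1 value of the Lgr5-positive group was in the replicate that carries mesenchymal markers. This comparison called 0 members beside 1.53% of genes by edgeR, with 4 (Igf2, H19, Dlk1 and Hmga2) under an unadjusted p of 0.05, 1 by DESeq2 and 0 by limma. In posterior intestine it called 0 members beside 0% of genes, with 0 under an unadjusted p of 0.05 and 0 by DESeq2 and limma. In the Id2 line it called 0 members beside 1.21% of genes, with 1 (Hmga2) under an unadjusted p of 0.05 and 0 by DESeq2 and limma. There Hmga2 had 279, 575 and 458 CPM in Lgr5-positive labelled cells, against 177, 347 and 251 CPM in labelled cells, higher within each replicate number. Hmga2 was at 0.75 ± 0.28 (adjusted p = 0.188) and passed with the replicate number as a block (0.77, adjusted p = 0.0336). Dlk1 in the same Id2 comparison had 175, 1.73 and 10.9 CPM in Lgr5-positive labelled cells, against 228, 237 and 162 CPM in labelled cells, overlapping through replicate 1 alone. Without that Lgr5-positive labelled library Dlk1 (-4.99, adjusted p = 0.00609) and Hmga2 (1.00, adjusted p = 0.0416) both passed, and without all 4 libraries of replicate 1 Dlk1 passed (-4.99, adjusted p = 0.00331). Liver and pancreas markers summed to 596 to 845 CPM in Lgr5-positive labelled cells and 1230 to 1660 CPM in labelled cells here, and mesenchymal markers to 472 to 1450 CPM in Lgr5-positive labelled cells and 46.8 to 232 CPM in labelled cells, the 1450 CPM being that of the Lgr5-positive labelled replicate 1. Their part was not tested.

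The fourth question was the early label. Lgr5-positive labelled over Lgr5-positive unlabelled cells called 0 members by edgeR in all 3 settings, beside 0.322% of genes in the Axin2 line at E13.5, 0% in posterior intestine and 0.0387% in the Id2 line. At an unadjusted p under 0.05 there were 1 (Hmga2), 2 (Lin28a and Dlk1) and 0 members in these settings, and DESeq2 and limma called 0 in each. The matching counts over all genes were 3001, 371 and 1215 at that unadjusted p. Hmga2 in the Axin2 line at E13.5 had 115, 154 and 102 CPM in Lgr5-positive labelled cells, against 196, 197 and 192 CPM in Lgr5-positive unlabelled cells (-0.70 ± 0.28, adjusted p = 0.182), with no overlap. The Lgr5-positive unlabelled group also enters the gate comparison at E13.5, so the 2 Hmga2 differences are not independent. In posterior intestine Hmga2 had 92.1, 65.1 and 84.3 CPM in Lgr5-positive labelled cells, against 73.3, 95.6 and 54.8 CPM in Lgr5-positive unlabelled cells, which overlapped.

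Labelled cells of unstated Lgr5 state over Lgr5-negative unlabelled cells called 0 members by edgeR in all 4 settings. The background was 0% of genes in the Axin2 line at E13.5, 0% in anterior and 0% in posterior intestine at E15.5, and 0.00645% in the Id2 line. At an unadjusted p under 0.05 there was 1 member, Lin28a, in the Id2 line and 0 in each other setting, DESeq2 called 0 in all, and limma called 1 in the Axin2 line at E13.5 and 0 in the others. Beside these stood 880 genes at that p in the Id2 line and 344 called by limma in the Axin2 line at E13.5. Hmga2 in the Axin2 line at E13.5 had 189, 170 and 191 CPM in labelled cells, against 164, 105 and 113 CPM in Lgr5-negative cells, a difference of the groups without overlap that did not pass edgeR's test. Igf2bp3 had 584, 517 and 573 CPM in labelled cells, against 429, 592 and 525 CPM in Lgr5-negative cells, and overlapped.

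The Id2 line at E13.5 is described without a test against the Axin2 line, since the lines differ in the labelled cells, in depth and in the share of reads outside genes, and these cannot be told apart. Hmga2 ran from 177 through 273 to 575 CPM over 12 Id2 libraries, against 102, 167 and 197 CPM over 12 Axin2 libraries at E13.5. Igf2 ran from 892 through 1490 to 3130 CPM in the Id2 line, against 192, 387 and 551 CPM in the Axin2 line. Igf2bp2 ran from 82.5 through 159 to 248 CPM in the Id2 line, against 335, 478 and 570 CPM in the Axin2 line. The lines did not overlap in Igf2, where Id2 was higher, or in Igf2bp2, where it was lower, and overlapped in part in Hmga2. Hmga1 ran from 0.852 to 3.48 CPM in the Id2 line, against 3.51 to 6.75 CPM in the Axin2 line. Igf2bp1, at 61 to 103 CPM in the Id2 line and 45.7 to 220 CPM in the Axin2 line, overlapped widely, as did Lin28b, at 0.0276 to 17.3 CPM in the Id2 line and 0.112 to 16 CPM in the Axin2 line. Igf2bp3 in the Id2 line ran from 188 through 324 to 443 CPM, with most libraries below the 411 CPM that was the lowest value of the Axin2 line at E13.5.

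Replicate 1 of the Id2 line stood apart from replicates 2 and 3 in every population. Its 4 libraries held 36125768 to 37729425 reads on genes, against 26888154 to 33177543 in the other 8. H19 had 773 to 1150 CPM in replicate 1, against 142 to 575 CPM in the others, and Igf2bp2 had 184 to 248 CPM in replicate 1, against 82.5 to 187 CPM in the others. Dlk1 had 142 to 228 CPM in replicate 1, against 1.73 to 464 CPM in the others, so the Id2 Lgr5-positive groups held both high and low Dlk1 libraries: the labelled one had 175, 1.73 and 10.9 CPM.

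H19 and Igf2 lie next to each other and share enhancers while being expressed from opposite parental alleles, so their read ratio was compared between libraries, without length correction. It was 1.41 to 7.12 with a median of 2.43 over 21 Axin2 libraries at E15.5, and 2.75 to 4.72 with a median of 3.71 over 12 at E13.5. In the 12 Id2 libraries it was 0.123 to 0.866 with a median of 0.232. Every Id2 library had more Igf2 than H19 reads and every Axin2 library had more H19 than Igf2 reads. The levels of the pair thus separated the lines with no overlap, and the ratio was not tested for the reasons given for the lines.

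**Figure D4:**
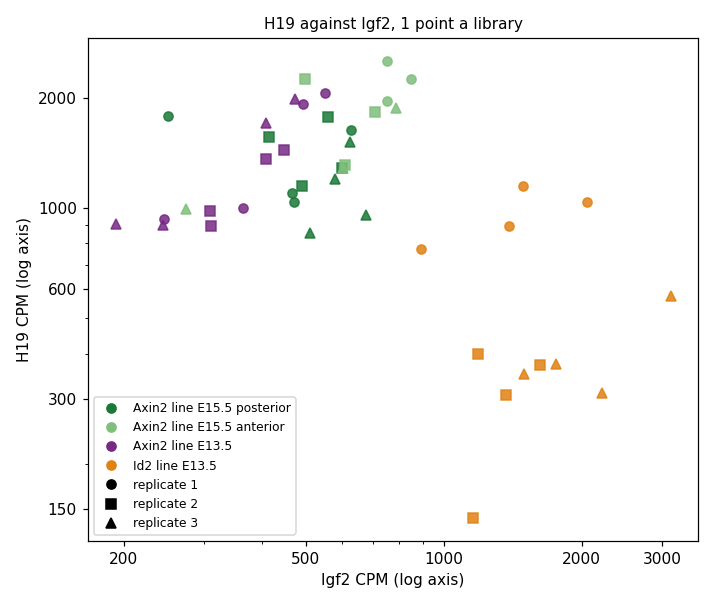
H19 against Igf2 in CPM (log axes) for 45 libraries, with colour for line, stage and gut part and symbol shape for replicate. The 12 Id2 libraries lie at lower right, at 892 CPM of Igf2 and above, and the 21 and 12 Axin2 libraries at upper left, at 849 CPM of Igf2 and below.

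As a description, group means on the log2 CPM scale were correlated over the 11 Axin2 groups, which share stages, gut parts and a like depth. Igf2bp1 and Igf2bp3 followed each other with r = 0.946, Igf2bp3 and Hmga2 with r = 0.878, and Igf2bp1 and Igf2bp2 with r = 0.847, while Igf2 and Hmga2 ran in opposite directions with r = -0.716. Igf2 and H19 had r = 0.632, and H19 and Dlk1 had r = 0.771. Among 9525 candidate genes the patterns most like that of Hmga2 were Thoc3 (r = 0.988), Hnrnph1 (0.985) and Lgi2 (0.983). For Igf2bp3 they were Fscn1 (r = 0.991), Bin1 (0.987) and Tmeff1 (0.981), for Igf2bp1 Axl (0.984), Senp3 (0.983) and Flot2 (0.983), and for Igf2bp2 Aplp2 (0.969), Plcg1 (0.965) and Mpp7 (0.962). For Igf2 they were Tmem129 (r = 0.964), Mcu (0.95) and Serinc2 (0.941), for H19 Wsb2 (0.941), Sat1 (0.934) and Cd47 (0.928), and for Dlk1 Tmem27 (0.967), Prdm16 (0.954) and Onecut2 (0.951). Lin28b had no neighbour above r = 0.906, reached by Ccndbp1. No shared role is read from these values.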

How the data were processed

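RNA of 500 sorted cells per library was amplified with the SMARTer kit in 15 cycles and prepared with Ovation Ultralow kits, per the labels' protocols. The authors deposited raw read counts per gene, 1 table per library; the submitters' processing notes name bcl2fastq 1.8.4, STAR 2.3.1z13, SAMtools 1.2, HTSeq 0.6.1p1, DESeq2 1.14.1 and build mm9, without settings. The 5 closing rows of each table, which name no gene, were left out; they held 23.9% to 49% of reads.

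The members and gene lists were chosen with earlier results of these data known. Counts were tested with edgeR 4.0.16 (R 4.3.3): TMM scaling, a filter of at least 10 counts in a group's libraries and 15 in all (filterByExpr), 1 quasi-likelihood fit over all 15 groups, and Benjamini-Hochberg adjustment over 15513 genes at 0.05. SEs were taken from the test statistic and 95% intervals use 30 residual degrees of freedom. Alternatives used DESeq2 1.42.0, limma 3.58.1 with voom, other scaling, no filter, the compared libraries alone, counts summed per replicate number, a replicate block and each library left out. On simulated data with known changes, 61% of 2-fold and 73% of 4-fold changes were recovered for the stage comparison, with 6 false calls among 15313 unchanged genes. Simulated libraries were drawn independently, with 100 genes changed at each size. Some same-numbered real libraries were correlated, as given below, so the count of false calls does not cover them. Named genes were all members, up to 4 genes per list with the smallest adjusted p below 0.05, and the 3 nearest patterns per member; single genes under an unadjusted p of 0.05 were named after their values were seen.

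Replicates are labelled as biological triplicates. Whether replicate numbers pair libraries was checked by correlating deviations from group means over genes: all 3 correlations exceeded 0.1 in 8 comparisons. These were the Lgr5 gate at E13.5 in both lines (0.545, 0.736 and 0.247 in Axin2, 0.535, 0.327 and 0.327 in Id2), the label among Lgr5-positive Id2 cells, labelled over Lgr5-negative cells in anterior intestine and in the Id2 line, Lgr5-positive labelled over labelled cells in posterior intestine and in the Id2 line, and posterior over anterior labelled cells.

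Sequences come from RefSeq (GRCm38.p6) and GENCODE M21 transcripts; of the members, 8 had promoter entries.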

Additional observations from a re-analysis of the deposited data

How the results depend on the processing

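Beside the averaged stage comparison, which called 4 members, a replicate block as a random effect in limma gave 2, because Igf2bp1 (adjusted p = 0.0572) and Igf2 (0.0869) missed the threshold, and 3116 genes against 5204. The stages come from different embryos, so correlations between same-numbered E15.5 and E13.5 libraries cannot decide whether that block is needed. Within a stage some of the averaged groups were paired, as labelled and Lgr5-negative cells in anterior intestine (0.516, 0.399 and 0.723). Others were not throughout, as Lgr5-positive and Lgr5-negative unlabelled cells in posterior intestine (0.21, -0.154 and 0.404). The main fit treats all these libraries as independent. Where a replicate block as a fixed term moved an unpaired count of members, it gave 3 in place of 2 for stage in Lgr5-negative cells, 2 in place of 1 for posterior over anterior intestine, 1 in place of 0 for the label at E13.5 in the Axin2 line (887 genes in place of 50), 3 in place of 0 for the gate within labelled cells there (1237 genes in place of 238) and 1 in place of 0 for the stage difference between Lgr5-positive and Lgr5-negative cells. In paired comparisons the replicate block gave 268 genes in place of 74 for the Id2 gate and 113 in place of 42 for posterior labelled cells, gave 508 in place of 187 and 1 member in place of 0 for the Id2 gate within labelled cells, and changed no other call of a member.

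With only the compared libraries in the fit, members called were 5 in place of 3 for the stage in labelled cells, 4 in place of 2 in Lgr5-negative cells, 0 in place of 3 in Lgr5-positive labelled cells (72 genes in place of 2260), 2 in place of 1 for gut part and for the E13.5 gate, 1 in place of 0 for gut part in labelled cells, the posterior gate and the stage difference, and 2 in place of 0 for gut part in Lgr5-negative cells. limma with quality weights gave 5 in place of 2 for stage in Lgr5-negative cells, 4 in place of 1 for gut part and for the E13.5 gate, 2 in place of 0 for gut part in Lgr5-negative cells and for the stage difference, and 1 in place of 0 for gut part in labelled and in Lgr5-positive cells, for the posterior and Id2 gates and for labelled over Lgr5-negative cells at E13.5. DESeq2 gave 1 in place of 0 for gut part in labelled cells, the gate within labelled cells at E13.5 and the stage difference. In the same order it called 168 genes against 42, 911 against 238 and 144 against 26. Among alternatives chosen after seeing the data, dropping the blood-marked libraries left 1 of 4 in Lgr5-positive unlabelled cells, and dropping Id2 replicate 1 gave 1 in place of 0 for both Id2 gate comparisons. The cause was not tested. Over all settings other than those that leave out 1 library, 148 counts stayed within 1.5 times and 31 moved.

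The Hmga1 stage value was 0.02 under DESeq2 size factors, DESeq2, limma, the compared libraries alone and summed counts, against -0.02, and the fitted Lin28a value was -0.4 without the blood-marked libraries. Summed counts called Lin28b (-0.92, adjusted p = 0.0362) and Dlk1 (-0.59, 0.0142) by stage, and the compared libraries alone called Lin28b (-0.95, 0.00326). Summed counts called 5120 of 15098 genes by stage, and the compared libraries alone 7395 of 14629. With 1 library left out, the members called ranged from 4 to 4 for the averaged stage, 2 to 3 in labelled, 1 to 4 in Lgr5-positive unlabelled, 1 to 2 in Lgr5-negative and 0 to 3 in Lgr5-positive labelled cells, 1 to 1 for gut part, 0 to 0 for the E13.5 gate and 0 to 2 for the Id2 gate within labelled cells, where 2 were called without the Lgr5-positive labelled replicate 1; Hmga1 ranged from -0.06 to 0.05 and Lin28a from -0.25 to 1. All other comparisons gave 0 to 0. In simulated data for the E13.5 gate, with 3 libraries per group, 22% of 2-fold and 62% of 4-fold changes were recovered, so a member not called there may still have changed; the other single-population contrasts were not simulated.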
